A study of Mus musculus with 4 samples.

Results

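The Fc receptor genes of mouse microglia were followed through single-cell libraries of mice on a cuprizone (CPZ) diet. The 6 genes were taken by symbol from the deposited gene list of 32285 genes: the receptors Fcgr1, Fcgr3, Fcgr4 and Fcgr2b, the signalling chain Fcer1g and the neonatal receptor Fcgrt. All were measured and passed the filter on low counts. The libraries came from 2 PRMT1FL mice, which carry floxed Prmt1 alleles, and 2 PRMT1Cx3cr1-KO mice, which carry the same alleles and the tamoxifen-inducible Cx3cr1-CreERT driver, so that Prmt1, the gene of an arginine methyltransferase, is deleted in cells that use Cx3cr1. These include microglia and other brain macrophages. All mice were on the C57BL/6 background. The methods place tamoxifen in mice of both genotypes at 5 to 6 wk of age and the diet 2 wk later, whereas the labels give that age for the diet. The diet held 0.2% CPZ, which chelates copper and strips myelin from axons, and lasted 5 wk. Each mouse gave 1 library of brain cells sorted for CD45 and CD11b. There was no library from the normal diet, so the values are compared between genotypes and between cells, not with the untreated brain.

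Fc gamma receptors bind the constant part of immunoglobulin G and let a phagocyte recognise targets coated with antibody. Fcgr1, Fcgr3 and Fcgr4 encode activating receptors, which signal through the ITAM motif of the common gamma chain encoded by Fcer1g, the kinase Syk and the phagocytic machinery. Fcgr2b encodes the inhibitory receptor, whose ITIM motif recruits lipid phosphatases such as SHIP1, encoded by Inpp5d. Fcgrt encodes the heavy chain of the neonatal receptor, which pairs with beta-2 microglobulin and returns immunoglobulin G from endosomes. Activating Fc gamma receptors are known as genes that interferon can raise in myeloid cells.

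Of the 6 genes, Fcgr2b, Fcgr4, Fcgr3 and Fcer1g lie in this order within 275.7 kb of chromosome 1 (GRCm38, the build of mm10, GENCODE vM21). Fcgr2b (ENSMUSG00000026656) spans 170958617 to 170976547 on the minus strand, Fcgr4 (ENSMUSG00000059089) 171018920 to 171029761 on the plus strand, Fcgr3 (ENSMUSG00000059498) 171051174 to 171064935 and Fcer1g (ENSMUSG00000058715) 171229572 to 171234365, both on the minus strand. No gene is annotated between Fcgr4 and Fcgr3, which are 21.4 kb apart. Fcgr1 (ENSMUSG00000015947) lies on chromosome 3 at 96282909 to 96293969 and Fcgrt (ENSMUSG00000003420) on chromosome 7 at 45092990 to 45103851, both on the minus strand. Fcgr2b and Fcgr3 are close relatives: of 1495 stretches of 25 bases in the last 500 bases of the coding transcripts of Fcgr2b, 94 also occur in Fcgr3 transcripts, and 12 of 972 the other way. The study's reads are longer than 25 bases, so a shared stretch does not by itself keep a read from being assigned. How many reads are affected was not measured. No stretch of this kind was shared by the other pairs. Annotated antisense genes overlap exons of Fcgr2b and Fcgrt.

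The RefSeq promoters (GRCm38.p6) of the 3 activating receptors are shown, because Fcgr1 and Fcgr4 peaked in one cluster of cells and Fcgr3 in others. Fcgr2b, whose promoter is not shown, also peaked in the cluster of Fcgr1 and Fcgr4. Each run is the 250 bases before the transcript start, 5′ to 3′ on the gene's strand, with motif matches in capitals. Fcgr1 is chr3:96293970-96294219 (minus strand), Fcgr4 is chr1:171018676-171018925 (plus strand) and Fcgr3 is chr1:171059404-171059653 (minus strand). The Fcgr3 window lies inside the gene span given above, before an internal start. The windows of Fcgr1 and Fcgr4 lie at the annotated 5′ ends of their genes.
Fcgr1: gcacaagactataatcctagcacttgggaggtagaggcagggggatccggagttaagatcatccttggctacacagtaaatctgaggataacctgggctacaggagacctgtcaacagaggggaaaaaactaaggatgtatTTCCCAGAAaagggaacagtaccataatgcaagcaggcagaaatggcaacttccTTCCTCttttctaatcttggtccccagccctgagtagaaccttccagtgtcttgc
Fcgr4: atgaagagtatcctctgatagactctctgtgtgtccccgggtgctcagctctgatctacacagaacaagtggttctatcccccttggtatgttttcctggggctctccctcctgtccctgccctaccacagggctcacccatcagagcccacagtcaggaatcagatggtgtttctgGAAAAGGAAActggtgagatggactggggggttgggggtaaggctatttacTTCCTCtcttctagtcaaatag
Fcgr3: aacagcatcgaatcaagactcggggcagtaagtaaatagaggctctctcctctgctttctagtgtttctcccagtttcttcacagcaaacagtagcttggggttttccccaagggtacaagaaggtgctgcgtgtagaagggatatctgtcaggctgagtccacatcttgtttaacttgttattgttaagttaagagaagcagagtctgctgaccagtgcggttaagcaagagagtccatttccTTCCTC

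Letters of 3 motifs were searched on both strands of the 300 bases from 250 before to 50 after the start. The core GAGGAA, a letter pattern of PU.1 sites (its other strand is TTCCTC), occurred once in each of these 3 promoters, beginning 55, 22 and 6 bases before the start of Fcgr1, Fcgr4 and Fcgr3, and in none of those of Fcer1g, Fcgr2b and Fcgrt. It also occurs in 28.3% of 32851 promoters of the same length. The GAS pattern TTCNNNGAA, a form bound by STAT dimers, was found only in Fcgr1 among the members, 109 bases before the start, against 8.3% of all promoters. A pattern of interferon-stimulated response elements (a pair of GAAA runs with any 2 bases between them) matched only Fcgr4, 73 bases before the start, against 3.44% of promoters. A match is a run of letters and not a site shown to be bound, and no match says only that the letters are not in this window.

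The 4 libraries held 76943248 to 99559644 UMIs, the unique tags that let every captured transcript count a single time, and 8170 to 11427 cells each passed the limits of the methods. Any pair of libraries shared 31 to 46 barcodes. Prmt1 stood at 90.8 and 83.9 CPM (UMIs per 1000000) in microglia of PRMT1FL mice and at 70.2 and 70.8 CPM in PRMT1Cx3cr1-KO mice, lower in both, with a log2 fold change of -0.38 (SE 0.07, adjusted p = 0.0758, edgeR). UMIs are given per gene, so recombined transcripts are not told apart from intact ones. Of 40869 cells, 39496 lay in 10 clusters taken as microglial. Of these, 7687 cells were in cluster 4, which had 4 haemoglobin genes among its top 50 but also all 8 microglial markers in every mouse (7079 to 7519 CPM summed). Its erythroid markers summed to 1447 and 925 CPM in PRMT1FL mice, with no UMI in PRMT1Cx3cr1-KO mice. Leaving it out changed no call of a member. All 8 microglial markers, among them P2ry12 and Tmem119, had UMIs there in every mouse. Before sorting, the study's staining blocked Fc receptors with an antibody to the products of Fcgr3 and Fcgr2b, and only RNA is measured here. Sums per mouse do not tell fewer transcripts per cell from fewer cells of a kind.

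In microglia the adaptor Fcer1g was by far the most abundant of the 6 genes, and Fcgr3 was the leading Fc gamma receptor. Each molecule is counted once at its 3′ end, so levels of different genes are compared in CPM without division by length. Fcgr1, the high-affinity receptor, was at 269 and 295 CPM in PRMT1FL mice and 296 and 264 CPM in PRMT1Cx3cr1-KO mice. The genotypes overlapped. Fcgr3, a low-affinity activating receptor, was at 718 and 736 CPM in PRMT1FL mice and 638 and 679 CPM in PRMT1Cx3cr1-KO mice. Both PRMT1Cx3cr1-KO mice were lower than both PRMT1FL mice. Fcgr4, the activating receptor with the lowest level, was at 37.5 and 43.1 CPM in PRMT1FL mice and 41.1 and 32.0 CPM in PRMT1Cx3cr1-KO mice, and the genotypes overlapped. Fcer1g stood at 3332 and 3878 CPM in PRMT1FL mice and at 3363 and 3715 CPM in PRMT1Cx3cr1-KO mice, and the genotypes overlapped. Fcgr2b, the inhibitory receptor, was at 254 and 279 CPM in PRMT1FL mice and 270 and 266 CPM in PRMT1Cx3cr1-KO mice, the latter inside the range of the former. Fcgrt was at 68.2 and 69.2 CPM in PRMT1FL mice and 65.1 and 56.8 CPM in PRMT1Cx3cr1-KO mice, lower in both.

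**Figure D1:**
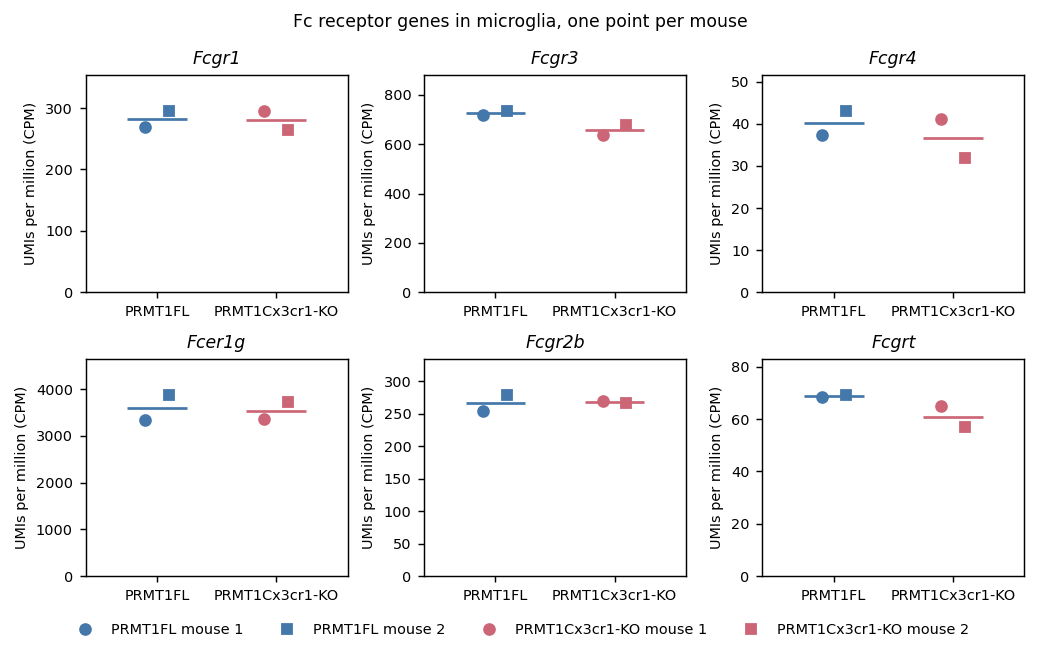
Level of each Fc receptor gene in microglia, in UMIs per 1000000 (CPM, vertical axis from 0), by genotype. Points are mice and bars are means of 2 mice. Fcgr3 and Fcgrt lie lower in both PRMT1Cx3cr1-KO mice, while the genotypes overlap for the other 4 genes.

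No member passed the test between the genotypes. These differ in both the deletion of Prmt1 and the Cx3cr1-CreERT driver, and the part of each was not tested. The question was whether the genotypes differ in their Fc receptor transcripts at the end of the diet, and edgeR's quasi-likelihood test on sums per mouse was adjusted over 13821 genes. None of the 6 members reached an adjusted p of 0.05, while 105 genes did, a background of 0.76% (0.535% higher and 0.224% lower in PRMT1Cx3cr1-KO). At an unadjusted p of 0.05, Fcgr3 and Fcgrt were among 2742 genes (19.8%). Fcgr3 had a log2 fold change of -0.22 (SE 0.07, adjusted p = 0.16), Fcgrt of -0.25 (SE 0.09, adjusted p = 0.218) and Fcgr4 of -0.21 (SE 0.14, adjusted p = 0.45). Fcer1g was at -0.10 (SE 0.10, adjusted p = 0.615), Fcgr1 at -0.09 (SE 0.10, adjusted p = 0.66) and Fcgr2b at -0.07 (SE 0.08, adjusted p = 0.654), all from edgeR. A fold change below 0 was found for all 6 members and for 51.1% of all genes. That of Fcgr2b was also below 0 with RLE scaling in place of TMM (-0.06), but not by CPM without scaling. Genes lower in both PRMT1Cx3cr1-KO mice, like 2 of the 6 members, made up 17.1% of all genes, those higher in both 38.8%, and the genotypes did not overlap for 55.9%. The 8 markers of border-associated macrophages were all detected in the microglia. They summed to 19.1 and 18.9 CPM in PRMT1FL mice and to 36.0 and 97.3 CPM in PRMT1Cx3cr1-KO mice. Most of each sum was Pf4, at 16.2 and 16.6 CPM and then at 32.3 and 90.6 CPM. Mrc1 came next, at 1.32 and 1.03 CPM and then at 1.95 and 3.78 CPM. Mgl2 was at 0.51 and 0.47 CPM and then at 0.42 and 0.51 CPM. The clusters taken as microglial included a cluster of 600 cells led by Ms4a7 and Clec12a, with Mrc1 and Pf4 among its top 50 genes. It held 35 and 18 cells of PRMT1FL mice and 96 and 451 of PRMT1Cx3cr1-KO mice. A fit left out this and any other microglial cluster with under 50 cells in a mouse. There Fcgr3 was at -0.21 (adjusted p = 0.17, edgeR) and Fcgrt at -0.24 (adjusted p = 0.226, edgeR), and no member passed. The part of the macrophage markers in the values of the members was not tested. By CPM without TMM scaling Fcgr2b was 0.01 higher on the log2 scale, since the scaling lowers the difference between genotypes by 0.08. Without PRMT1Cx3cr1-KO mouse 1, Fcgr4 at -0.43 (adjusted p = 0.0025, edgeR) and Fcgrt at -0.37 (adjusted p = 0.00172, edgeR) passed, beside 2735 genes in all. Without PRMT1Cx3cr1-KO mouse 2, Fcgr4 was at -0.02 (adjusted p = 0.937, edgeR) and Fcgrt at -0.13 (adjusted p = 0.349, edgeR). With the cluster as a term, Fcgrt passed at -0.21 (adjusted p = 0.00172, limma voom, 2041 genes in all), a fit that takes several sums from each mouse.

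Among the UMIs of the 4 Fc gamma receptors, Fcgr3 made up 56.2 and 54.4% in PRMT1FL mice, against 51.3 and 54.7% in PRMT1Cx3cr1-KO mice. Fcgr1 followed with 21.0 to 23.8%, Fcgr2b with 19.9 to 21.7% and Fcgr4 with 2.58 to 3.30%. The Wilson 95% intervals of these shares were narrower than the spread between mice, and for Fcgr3 in PRMT1FL mouse 1 ran from 55.9 to 56.5%. Activating UMIs (Fcgr1, Fcgr3 and Fcgr4) exceeded those of Fcgr2b by 4.03 and 3.85 times in PRMT1FL mice and by 3.62 and 3.66 times in PRMT1Cx3cr1-KO mice. Both PRMT1Cx3cr1-KO ratios were lower than both PRMT1FL ratios. The mean log2 ratio was 1.98 ± 0.05 (SD, n = 2) in PRMT1FL mice and 1.86 ± 0.01 (SD, n = 2) in PRMT1Cx3cr1-KO mice, a difference of -0.11 with an exact 2-sided permutation p of 0.333. This is the smallest p that 2 mice against 2 can give.

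Nearly every microglial cell held Fcer1g, and few held Fcgr4 at equal depth. After each cell was thinned to 1000 UMIs, Fcer1g had a UMI in 92.5 and 94.8% of PRMT1FL microglia and in 92.1 and 93.3% of PRMT1Cx3cr1-KO microglia. Fcgr3 had one in 50.6 and 51.3% and in 47.9 and 49.1%, in the same order. Fcgr1 was seen in 23.1 to 26.7% of cells over the 4 mice, Fcgr2b in 20.4 to 22.9%, Fcgrt in 6.16 to 7.99% and Fcgr4 in 2.70 to 4.0%. Without thinning the ranges were 97.8 to 99.0% for Fcer1g, 90.6 to 92.1% for Fcgr3, 74.1 to 79.8% for Fcgr1, 67.0 to 71.2% for Fcgr2b, 34.0 to 41.3% for Fcgrt and 20.3 to 25.1% for Fcgr4. The shares of Fcgr3 and Fcgrt did not overlap between genotypes and were lower in PRMT1Cx3cr1-KO mice, by 2.48 and 1.12 percentage points. That of Fcgr2b did not overlap either and was higher by 1.30 points. Each had an exact permutation p of 0.333, the smallest possible, and the other 3 members had 0.667. How often the shares of all genes separate in this way was not counted. By CPM, another measure, the genotypes did not overlap for 55.9% of all genes. With cells thinned to 500 UMIs, Fcgr3 overlapped (30.8 and 30.1% in PRMT1FL, 28.0 and 30.2% in PRMT1Cx3cr1-KO mice). Fcgr2b overlapped without thinning (67.0 and 70.8%, then 68.8 and 71.2%). Without thinning, the 4 receptors were all seen in the same cell in 15.3 to 19.3% of microglia and none was seen in 3.24 to 3.79%.

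To set these shares against free RNA, the 77 endothelial-like cells were taken as a type that should lack most of the genes. Thinned to the same depth, 69 of them had Fcer1g in 11.6%, Fcgr3 in 2.90%, Fcgr1 and Fcgr4 in 1.45% each and Fcgr2b in none, which allows up to 4.35%. Their median was 2081 UMIs, against 6598 in microglia. For Fcgr4 the exact interval of this share reached 7.81% and covered that of microglia, but in 379 cells with astrocyte, oligodendrocyte and choroid plexus genes no UMI of Fcgr4 was seen, which allows up to 0.792%. Intervals and limits of this kind cover counting error only.

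Fcgr1, Fcgr4 and, in a narrower range, Fcgr2b were highest in the interferon-responsive-like cells in all 4 mice. The 6 members took no part in the clustering, nor did 749 genes that differed between genotypes. The 8 clusters with at least 50 cells in every mouse were phagolysosomal-like (cluster 0, led by Gpnmb), cytokine-like (cluster 2, led by Il12b and Ptgs2), proliferating-like (cluster 3, led by Mki67), interferon-responsive-like (cluster 9, led by Rsad2 and Ifit3) and 4 without a name. These were cluster 1 (Gdf15 and Tnf), cluster 4 (haemoglobin genes and Ube2c), cluster 6 (Hspa1b, Txnip and Klf2) and cluster 7 (Mmp12 and Gdf15). Cluster 4 also had the proliferating markers Birc5, Cdk1, Ube2c, Stmn1 and Pclaf among its top 50 genes, so the name proliferating-like stands for cluster 3 only. Haemoglobin and related erythroid genes, summed over microglia, stood at 242 and 94.3 CPM in PRMT1FL mice but at 0.0614 and 0.0217 CPM in PRMT1Cx3cr1-KO mice. Levels by cluster are a description, without a test.

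Fcgr1 in cluster 9 was at 676 and 706 CPM in PRMT1FL mice and at 640 and 624 CPM in PRMT1Cx3cr1-KO mice. No other cluster reached a mean above 359 CPM, and the mean of cluster 9 was 662 ± 36.9 CPM (SD, n = 4). Next came clusters 6 (359 CPM) and 7 (357 CPM), which did not differ beyond the spread of the mice, and the lowest were clusters 3 (243 CPM) and 4 (241 CPM). Fcgr4 followed the same peak, at 121 and 121 CPM in PRMT1FL mice and 125 and 87.9 CPM in PRMT1Cx3cr1-KO mice in cluster 9. Its means in the other clusters ran from 21.8 CPM (cluster 1) to 40.1 CPM (cluster 4), and every mouse had its highest level in cluster 9. After thinning, Fcgr1 was seen in 48.6% of the cells of cluster 9 and in 20.1 to 32.1% of the cells of the others. For Fcgr4 the values were 9.24% and 2.08 to 3.77%.

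Fcgr3 had another order. It was highest in cluster 7 (1013 ± 80.0 CPM, SD, n = 4) and cluster 6 (957 ± 55.4 CPM, SD, n = 4), with cluster 7 above cluster 6 in 3 of 4 mice. Clusters 1 (mean 795 CPM) and 9 (724 CPM) followed, and their order went with the genotype: cluster 9 was above cluster 1 in both PRMT1FL mice and below it in both PRMT1Cx3cr1-KO mice. In the proliferating-like cells Fcgr3 was lowest in all 4 mice, at 475 ± 34.1 CPM (SD, n = 4). Cluster 4, which also had proliferating markers, was at 614 to 694 CPM over the mice. Within a mouse cluster 7, the highest by mean, exceeded the proliferating-like cells by 1.88 to 2.50 times.

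Fcer1g, which the activating receptors need for signalling, had its lowest means in clusters 1, 7 and 6, and of these clusters 7 and 6 held the most Fcgr3 in all 4 mice. It reached 4904 ± 365 CPM (SD, n = 4) in cluster 4 and 1900 ± 187 CPM (SD, n = 4) in cluster 1, the highest and the lowest cluster in all 4 mice. Clusters 7 and 6 were at 2279 and 2459 CPM and phagolysosomal-like cells at 4079 CPM. Fcgr2b had the narrowest range of the 6 genes within a mouse. It was at 333 ± 11.3 CPM (SD, n = 4) in cluster 9, the highest in all 4 mice. Cluster 4, the lowest by mean but not in every mouse, held 196 ± 17.2 CPM (SD, n = 4). Within a mouse cluster 9 exceeded cluster 4 by 1.55 to 1.88 times. Fcgrt was at 133 ± 21.1, 122 ± 18.5 and 120 ± 1.96 CPM (SD, n = 4) in clusters 7, 1 and 6 and at 41.1 to 63.4 CPM in the other 5 clusters. Its lowest level was in the proliferating-like cells in all 4 mice, against 49.5 to 56.3 CPM in cluster 4.

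**Figure D2:**
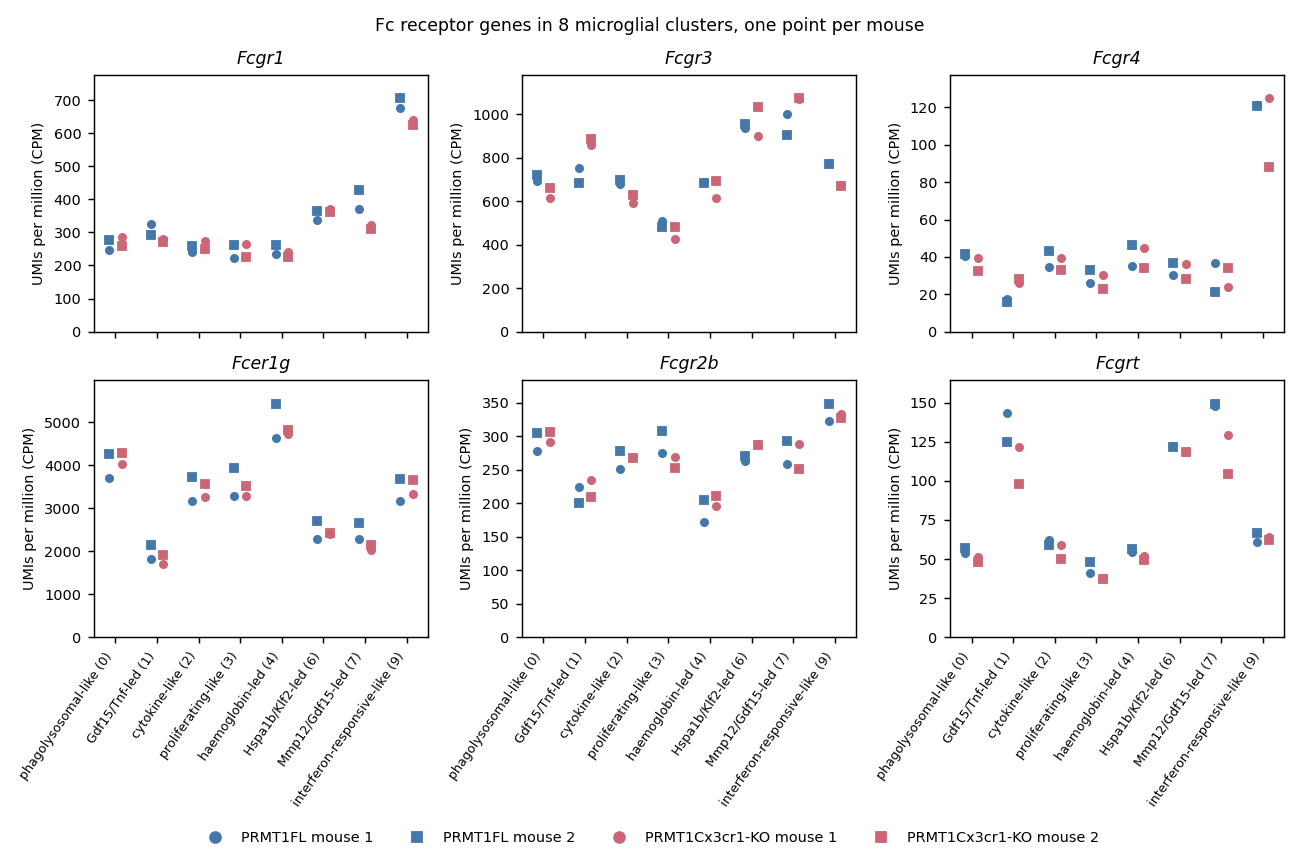
Level of each gene in 8 microglial clusters, in UMIs per 1000000 (CPM, vertical axes from 0, scaled by gene). Each point is 1 mouse. Fcgr1, Fcgr4 and Fcgr2b stand highest in interferon-responsive-like cells in all 4 mice, with Fcgr3 in clusters 6 and 7, and Fcgrt in clusters 1, 6 and 7.

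Depth differed between these clusters. The median cell had 2607.5 UMIs in cluster 7, 4311 in cluster 6, 4383 in cluster 4 and 4769 in cluster 1, against 8929 to 13107 in the other 4. Clusters 4 and 6, of like depth, held Fcer1g at 4904 and 2459 CPM and Fcgrt at 53.2 and 120 CPM. With the cells of the 4 mice pooled, the thinned shares were highest in clusters 7 and 6 for Fcgr3 (62.8 and 60.3%) and in clusters 7, 6 and 1 for Fcgrt (13.3, 12.05 and 12.2%), and lowest in cluster 3 for both (35.8 and 3.47%). Barcodes marked as doublets made up 20.1% of cluster 3 and 16.4% of cluster 2, and at most 8.12% of the other 6.

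The ratio of activating to inhibitory UMIs was lowest in the proliferating-like cells, between 2.52 and 2.75 for PRMT1FL and between 2.69 and 2.89 for PRMT1Cx3cr1-KO. It was 3.11 to 3.53 in phagolysosomal-like and 3.36 to 3.79 in cytokine-like cells. Clusters 1, 4, 6, 7 and 9 had ratios of 4.21 to 5.67. Among them cluster 4, which also had proliferating markers, was at 4.53 to 5.58. In clusters 0, 2, 4 and 9 both PRMT1Cx3cr1-KO mice were lower than both PRMT1FL mice, and in the other 4 clusters the genotypes touched or overlapped. The clusters share the same 4 mice, and the ratios by cluster were not tested. How often ratios of other genes separate in this way was not counted. By CPM in microglia, another measure, the genotypes did not overlap for 55.9% of all genes.

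**Figure D3:**
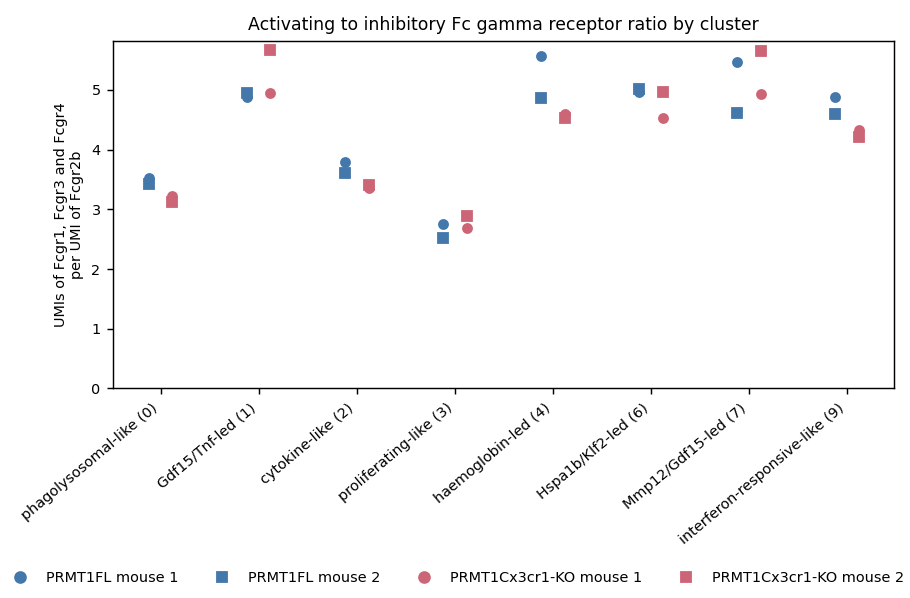
UMIs of Fcgr1, Fcgr3 and Fcgr4 together per UMI of Fcgr2b (vertical axis from 0) in 8 microglial clusters. Each point is 1 mouse. The proliferating-like cells lie lowest, between 2.52 and 2.89, in every mouse.

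The genes whose levels went most alike with each member were sought over 32 sums of 4 mice and 8 clusters among 7520 genes, as Pearson's r of log2(CPM + 1). The sums of 1 mouse share a library, and those of 1 cluster share the markers that define it, so the values are a description. For Fcgr1 they were Ddx58 (r = 0.959), which encodes the RNA sensor RIG-I, the interferon-induced GTPase Igtp (0.954) and Samhd1 (0.942). For Fcgr4 they were the interferon-stimulated genes Rsad2 (0.94), Cmpk2 (0.935) and Ifit1 (0.932). Fcgr3 went with Tnfaip8l2 (0.893), the acid ceramidase gene Asah1 (0.888) and Ypel3 (0.883). Fcer1g went with Tmem9b (0.968), Micos13 (0.965) and Ppib (0.963), and Fcgr2b with Adam33 (0.906), Atp8a1 (0.824) and Cd180 (0.813). For Fcgrt they were Pld4 (0.983), an exonuclease gene of the phospholipase D family, Sult1a1 (0.977) and Cd82 (0.974). Between members, r was 0.845 for Fcgr3 with Fcgrt and 0.686 for Fcgr1 with Fcgr4. It was -0.816 for Fcer1g with Fcgrt and -0.594 for Fcer1g with Fcgr3.

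Within clusters the genotype was tested again, to see the level inside cells of 1 kind. None of 48 tests of a member in a cluster passed an adjusted p of 0.05 by edgeR, against 4.68% of 83921 tests of all genes. By cluster, the share of all genes called was 2.25% in cluster 0, 8.05% in 1, 1.32% in 2, 0.425% in 3, 3.1% in 4, 3.3% in 6, 21.5% in 7 and 1.33% in 9. At an unadjusted p of 0.05 there were 14, against 17.4% of all tests. DESeq2 called 0, with 4 at an unadjusted p of 0.05, against 8.15% of all its tests. The log2 fold change was below 0 in 40 of the 48, against 50.5% of all tests. The 48 values come from the same 4 mice and are not independent. With a mouse left out, the count below 0 was 27 (without PRMT1FL mouse 2) to 42 (without PRMT1FL mouse 1).

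Fcgr3, alone among the members, had a genotype difference that passed a test of its change between clusters. In cytokine-like cells it was at 678 and 698 CPM in PRMT1FL mice and 592 and 631 CPM in PRMT1Cx3cr1-KO mice, lower in both, like 14.4% of the genes tested there, where 39.2% were higher in both. The log2 fold change was -0.25 (SE 0.07, adjusted p = 0.13, edgeR). In cluster 7 it was at 1002 and 905 CPM in PRMT1FL mice and 1071 and 1076 CPM in PRMT1Cx3cr1-KO mice, higher in both, like 21.2% of genes, while 38.8% were lower in both. Here the log2 fold change was 0.31 (SE 0.12, adjusted p = 0.057, edgeR). In cluster 1 it was at 754 and 684 CPM in PRMT1FL mice and 858 and 885 CPM in PRMT1Cx3cr1-KO mice, again higher in both, like 28.1% of genes (23.7% were lower in both), with a log2 fold change of 0.25 (SE 0.12, adjusted p = 0.224, edgeR). In the other 5 clusters it ran from -0.24 in interferon-responsive-like cells to -0.04 in cluster 6, where the log2 ratio of mean CPM without TMM scaling was 0.03.

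The difference itself was tested with limma voom over sums per mouse and cluster, as the genotype effect in 1 cluster minus the mean effect in the other 7, with the mouse as a random block. For the members, 3 of 48 such differences passed an adjusted p of 0.05, all of Fcgr3, against 2.66% of 97920 tests of all genes. They were 0.43 in cluster 7 (SE 0.07, adjusted p = 7.0e-05), where 11.7% of genes passed, 0.41 in cluster 1 (SE 0.07, adjusted p = 0.00123), where 2.07% passed, and -0.23 in cytokine-like cells (SE 0.05, adjusted p = 0.0157), where 2.62% passed, all from limma. In the other clusters no member passed, and of all genes 2.78% did in cluster 0, 1.23% in 3, 0.735% in 4, 0.049% in 6 and 0.0817% in 9. The clusters of 1 mouse share its library, so these p-values rest on 32 sums of 4 mice. With any 1 mouse left out, the difference in cluster 7 was 0.36 to 0.49 (adjusted p = 9.0e-04 to 0.037, limma). The one in cluster 1 lost its call without PRMT1FL mouse 1 (adjusted p = 0.069) or PRMT1FL mouse 2 (adjusted p = 0.12). That of cytokine-like cells lost it without PRMT1FL mouse 1 (adjusted p = 0.314), PRMT1FL mouse 2 (adjusted p = 0.667) or PRMT1Cx3cr1-KO mouse 2 (adjusted p = 0.0558). With the clustering resolution raised, cluster 7 kept its call at 0.50 (adjusted p = 2.4e-04), whereas cluster 1 at 0.16 (adjusted p = 0.358) and cytokine-like cells at -0.18 (adjusted p = 0.675) did not, all from limma. The clusters compared were not the same cells: the finer cluster matched to cytokine-like cells held 37.1% of them, and the one matched to cluster 1 drew 67.9% of its cells from it.

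The cells of the 3 clusters were not of the same makeup in both genotypes. In cluster 7 Mmp12, which encodes a macrophage elastase, was at 3.79 and 2.23 CPM in PRMT1FL mice and 349 and 291 CPM in PRMT1Cx3cr1-KO mice, and Gdf15, a stress-induced cytokine gene, at 10.1 and 23.4 CPM and 378 and 279 CPM. The homeostatic marker P2ry12 was at 2233 and 2420 CPM in PRMT1FL mice and 2108 and 1713 CPM in PRMT1Cx3cr1-KO mice. The 8 microglial markers, P2ry12 among them, summed there to 22100 and 23000 CPM in PRMT1FL mice. In PRMT1Cx3cr1-KO mice their sum was 13320 and 11480 CPM. For cluster 1 this sum was 14550 and 14420 CPM in PRMT1FL mice and 11070 and 10440 CPM in PRMT1Cx3cr1-KO mice. In cluster 1 Gdf15 was at 12.03 and 4.73 CPM in PRMT1FL mice and at 354 and 394 CPM in PRMT1Cx3cr1-KO mice. Cluster 7 held 330 and 342 cells of PRMT1FL mice and 477 and 827 of PRMT1Cx3cr1-KO mice, and cluster 1 held 164 and 106 and then 570 and 473. In cytokine-like cells Mmp12 was at 30.02 and 39.8 CPM in PRMT1FL mice and at 13.6 and 11.1 CPM in PRMT1Cx3cr1-KO mice, while Gpnmb was at 99.9 and 91.3 CPM and then at 68.8 and 79.3 CPM. Mgst1 went the other way there, from 0.0878 and 0.109 CPM in PRMT1FL mice to 2.15 and 6.37 CPM in PRMT1Cx3cr1-KO mice. The part of this makeup in the Fcgr3 values was not tested. TMM scaling raises the difference in cluster 7 by 0.13 and lowers that in cluster 4 by 0.12 on the log2 scale. Without it, Fcgr3 in cluster 7 had a log2 ratio of mean CPM of 0.17. This ratio was 0.28 in cluster 1 and ran from -0.21 (cluster 9) to 0.03 (cluster 6) in the others. The test between clusters also used TMM scaling in every setting and was not repeated without it.

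**Figure D4:**
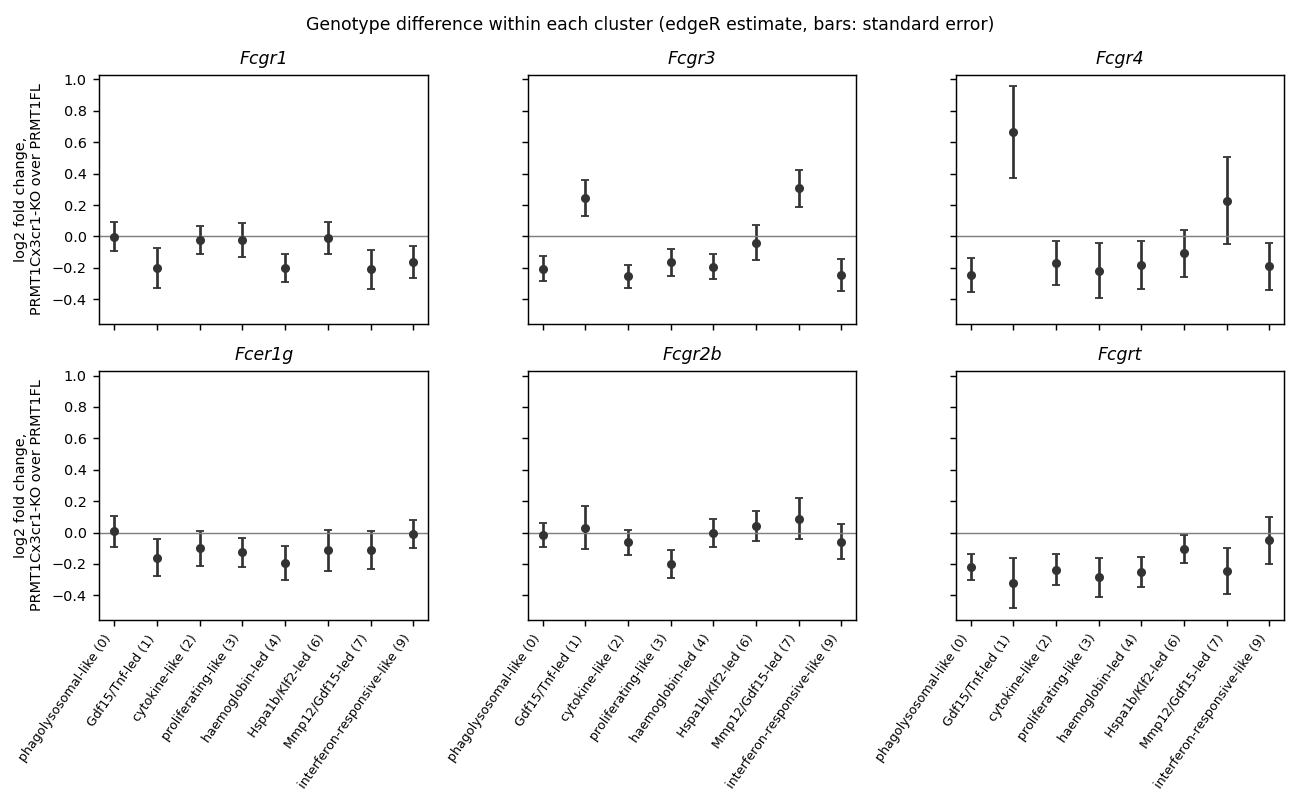
Genotype difference of each gene within 8 microglial clusters, as edgeR's log2 fold change of PRMT1Cx3cr1-KO over PRMT1FL (vertical axis, 0 is no difference). Bars are standard errors. Fcgr3 lies above 0 in clusters 1 (0.25) and 7 (0.31) and below 0 in the other 6. By CPM without scaling it was above 0 in cluster 6. None of the 48 values passed an adjusted p of 0.05.

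The other members did not pass this test in any cluster. Fcgr4 in cluster 1 was at 17.4 and 15.8 CPM in PRMT1FL mice and at 25.9 and 28.0 CPM in PRMT1Cx3cr1-KO mice. It was higher in both, like 28.1% of genes there, and the PRMT1FL levels rest on only 13 and 10 UMIs. Its log2 fold change there was 0.66 (SE 0.29, adjusted p = 0.184, edgeR), and 0.24 with the clustering resolution raised. In phagolysosomal-like cells it was -0.25 (SE 0.11, adjusted p = 0.283, edgeR). The difference of cluster 1 from the other clusters was 0.80 for Fcgr4 (SE 0.57, adjusted p = 0.557, limma). The same difference from the other clusters (limma) ran from -0.12 to 0.10 for Fcgr1 and from -0.11 to 0.10 for Fcer1g. For Fcgr2b it ran from -0.20 to 0.12 and for Fcgrt from -0.08 to 0.18 over the 8 clusters. Fcgrt had a fold change below 0 in each of the 8 clusters, from -0.32 in cluster 1 to -0.05 in cluster 9 on the log2 scale.

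Outside the microglial clusters, Fcgrt was the member with its highest level in endothelial-like cells. With the cells of the 4 mice summed, it was at 64.5 CPM in microglia (exact Poisson 95% interval 63.7 to 65.4). Endothelial-like cells held 416 CPM (325 to 523, 72 UMIs in 77 cells), and 37.7% of them had a UMI after thinning, against 7.20% of microglia. Border-associated macrophage-like cells, with Mrc1 and F13a1 among the leading genes of each of their clusters, held 136 CPM (128 to 145, 775 cells). By mouse they held 232 and 148 CPM in PRMT1FL mice and 158 and 94.9 CPM in PRMT1Cx3cr1-KO mice. In 1 of their 3 clusters 35.7% of the barcodes were marked as doublets. Of the others, 1 had only 29 cells, with Fcgrt at 444 and 178 CPM in PRMT1FL mice and at 86.4 and 0 CPM in PRMT1Cx3cr1-KO mice, from 8 UMIs or fewer in each. The largest (404 cells, 1.73% marked as doublets) held 278 ± 39.2 CPM (SD, n = 4), above every microglial cluster in every mouse. It was led by H2-Eb1, and the monocyte marker Ccr2 was also among its leading genes. In that cluster Fcgr2b reached 403 ± 39.3 CPM and Fcgr4 73.7 ± 14.6 CPM (SD, n = 4). Its ratio of activating to inhibitory UMIs was 2.32 to 2.81 for PRMT1FL and 2.17 to 2.77 for PRMT1Cx3cr1-KO.

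Neutrophil-like cells, of which 74 of 75 came from PRMT1FL mice, had Fcgr3 at 484 CPM (425 to 548) and Fcgr4 at 47.8 CPM (30.6 to 71.1). Their Fcgr1 level was 75.6 CPM (53.5 to 104) and their Fcgrt level 15.9 CPM (6.87 to 31.4), both below those of microglia. The 27 monocyte-like cells had Fcgr3 at 344 CPM (263 to 443) and Fcgr1 at 63.1 CPM (31.5 to 113). In the 419 cells with astrocyte, oligodendrocyte and choroid plexus genes Fcer1g was at 899 CPM (855 to 946), where 20.1% had a UMI after thinning. Microglia carried 95.5 to 98.8% of the UMIs of each member other than Fcgrt, and 93.5 to 96.7% of those of Fcgrt. They were 95.5 to 98.0% of the cells, so these shares lie close to the share of cells.

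**Figure D5:**
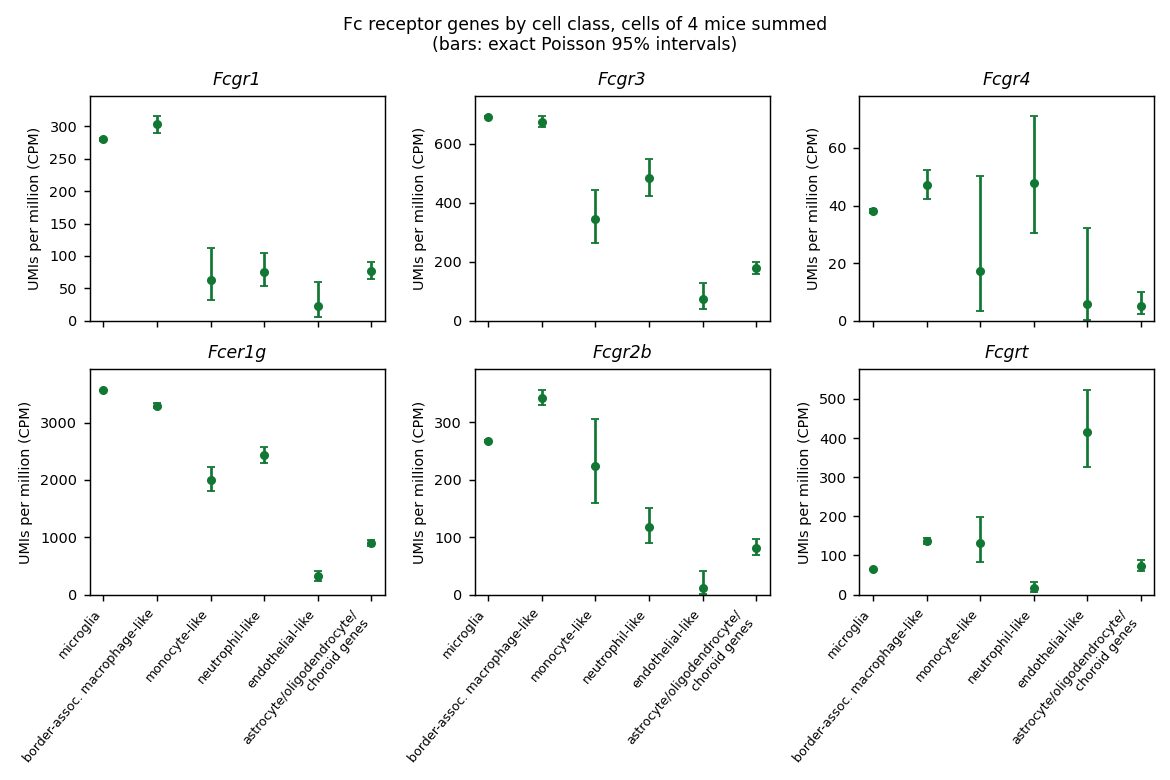
Level of each gene by cell class in UMIs per 1000000 (CPM, vertical axes from 0, scaled by gene), with the cells of 4 mice summed. Bars are exact Poisson 95% intervals, which cover counting error only. Fcgrt stands highest in endothelial-like cells at 416 CPM, where the other 5 genes have their lowest or, for Fcgr4, next to lowest level.

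The partners of the receptors were counted in fixed lists, beside a median log2 fold change over all genes of -0.004. No gene of these lists passed an adjusted p of 0.05 by edgeR, in either direction, where 0.76% of all genes did. The 6 members had a median of -0.16. Of 32 genes of ITAM signalling, all were tested, 15 lay above 0 and 17 below, and the median was -0.002. Its most abundant genes were Tyrobp, the adaptor DAP12, at a mean of 5145 CPM (log2 fold change -0.14, SE 0.09, adjusted p = 0.427, edgeR) and the kinase gene Lyn at 291 CPM (0.14, SE 0.07, adjusted p = 0.322, edgeR). The 11 genes of inhibitory signalling had a median of 0.01, with Sirpa, a receptor for CD47, at 473 CPM (-0.45, SE 0.09, adjusted p = 0.0806, edgeR) and the phosphatase gene Ptpn6 at 231 CPM (-0.11, SE 0.07, adjusted p = 0.417, edgeR). For 23 genes of the phagocytic cup and the oxidase the median was 0.03, and Cyba and Cfl1, the most abundant, were at 1457 and 1393 CPM with values of -0.11 and 0.04. The 15 genes of the interferon gamma axis and myeloid factors had a median of -0.03, with Irf8 at 542 CPM (-0.31, SE 0.08, adjusted p = 0.132, edgeR) and Cebpb at 436 CPM (0.18, SE 0.09, adjusted p = 0.319, edgeR). Around the medians, values ran from -0.45 to 2.35 in ITAM signalling and from -0.45 to 0.78 in inhibitory signalling. They ran from -0.43 to 0.18 for the phagocytic cup and from -2.55 to 0.31 for the interferon gamma axis. The values of 2.35 and -2.55 came from genes with means of 0.30 and 0.74 CPM. Of 15 other Fc receptors and partners only 4 had enough counts to be tested: B2m, which encodes the light chain that pairs with the Fcgrt product, at 3098 CPM (-0.46, SE 0.15, adjusted p = 0.166, edgeR), Fcrls, a receptor-like gene typical of microglia, at 2062 CPM (-0.02), Fcrl1 and Trim21. The IgE receptor genes Fcer1a and Ms4a2 and the IgM receptor gene Fcmr were at 0 in the microglia of every mouse.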

How the data were processed

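Single-cell libraries of 2 PRMT1FL and 2 PRMT1Cx3cr1-KO mice were grouped by their labels. Per the labels, mm10 and Cell Ranger 3.1.0 were used upstream, and the authors deposited counts (UMIs per gene and cell) without normalization. Seurat 3.2.0 and Scanpy 1.5.2 are also named in the submitters' notes. The cell limits followed the methods (200 to 6000 genes, mitochondrial UMIs up to 10%). Doublets were scored with Scrublet in scanpy 1.11.5 and kept in the values reported. Clustering (2000 variable genes, 20 principal components, 15 neighbours, Leiden resolution 0.4) left out the 6 Fc receptor genes and 749 genes that differed between genotypes. A cluster was microglial unless 3 or more markers of another brain or immune cell type were among its top 50 genes, and it was named from fixed markers. The erythroid markers were not used in this rule, which kept cluster 4. UMIs were summed per mouse and tested with edgeR's quasi-likelihood test (TMM, filterByExpr, Benjamini-Hochberg adjustment over all genes tested), between clusters with limma voom, and for single values with an exact 2-sided permutation test. SE of a fold change was its size over the square root of the F statistic. Microglial sums held 72749189 to 92368094 UMIs per mouse. The 2 mice of a genotype differed beyond sampling noise (chi-square per degree of freedom 19.4 and 55.9).

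The members and gene lists were chosen with earlier results of these data known. Named genes were the members, the 2 most abundant genes of each list and any gene of a list that passed the test, and the 3 genes most alike to each member; Fcer1a, Ms4a2, Fcmr, Fcrl1, Trim21, Mmp12, Gdf15, Gpnmb, Mgst1 and P2ry12 were named after their values were seen. Other settings tried were DESeq2, RLE, no filter, each mouse left out, the replicate number as a block, all cells, doublets out, a 5% mitochondrial limit, thinning, cluster as a term and a raised clustering resolution. The tests were tried on simulated counts first.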

Additional observations from a re-analysis of the deposited data

Results flagged for a closer look

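The genotype effect on Fcgr3 in 1 cluster differed from its mean in the other clusters by limma's voom, on the log2 scale, by 0.43 in cluster 7, by 0.41 in cluster 1 and by -0.23 in cytokine-like cells. These are the 3 differences between groups that passed the test among the 6 members and 8 clusters. All 3 were taken after TMM scaling, and the test was not repeated without it. No explanation was tested. With 2 mice per genotype, a search for a mouse far from the others of its group was not possible.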

How the results depend on the processing

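With 2 mice per genotype, a design that lacks normal-diet mice and no protein data, small differences in Fc receptor transcripts could not be resolved. Of 280 repeats of 32 results under another setting, 242 were counted as the same. For fold changes and their differences between clusters, this meant the same direction and side of the threshold. For the shares and the ratio it meant the same direction only, and for counts of calls a number within a set factor. The number of genes that differed between genotypes (105) was 725 by DESeq2, 1624 without the filter on low counts, 749 over all cells, 266 after thinning, 2041 with the cluster as a term, 390 with the replicate number as a block and 4 to 2735 with a mouse left out. Leaving out microglial clusters with under 50 cells in a mouse, cluster 4 for its erythroid markers (102 genes), and mice in the test between clusters, were chosen after seeing the data. With a mouse left out, fold changes in microglia ran from -0.19 to 0.019 for Fcgr1, -0.24 to -0.19 for Fcgr3, -0.43 to -0.018 for Fcgr4, -0.21 to 0.0097 for Fcer1g, -0.14 to -8.4e-04 for Fcgr2b and -0.37 to -0.13 for Fcgrt. Fcgr2b was 0.026 after thinning and Fcgrt -0.21 (past the threshold) with the cluster as a term. With a mouse left out, shares with a UMI differed by -2.43 to 1.1 points for Fcgr1, -3.08 to -1.89 for Fcgr3 and -0.939 to 0.125 for Fcgr4. In the same repeats they differed by -2.09 to 0.173 for Fcer1g, 0.486 to 2.11 for Fcgr2b and -1.61 to -0.636 for Fcgrt. Other depths gave values outside these ranges. With cells thinned to 500 UMIs, Fcgr3 differed by -1.34 and Fcgrt by -0.439 points. Without thinning, Fcgr3 differed by -0.858, Fcgr4 by -1.38 and Fcgrt by -4.55 points. The log2 ratio of activating to inhibitory UMIs differed by -0.15 to -0.08.

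Within clusters, 0 member tests passed in the reported fit, 1 with the replicate block (Fcgr3 in cluster 7, 0.31, adjusted p = 0.0418 from edgeR), where 7.87% of all tests passed, and 0 to 7 with a mouse left out. The 7 came without PRMT1Cx3cr1-KO mouse 1, where 10.9% of all tests passed. Fcgr3 in cluster 6 ran from -0.086 to 0.012 over the mice left out. The replicate block changed no other call of a member. The labels do not say whether same-numbered mice share more than a number. Their deviations from the genotype means had r = -0.02 over 13821 genes, which does not settle it with 4 mice. Between clusters, 3 member differences passed in the reported fit, where 2.66% of all tests passed. With mouse as a fixed term 4 passed (Fcgr3 in cluster 0, -0.18, was added), and 1 did at the raised resolution. The share of all tests that passed is not given for these other settings, so their counts are not a result about the members. For Fcgr3 at the raised resolution, cluster 1 was 0.16, cytokine-like cells -0.18 and cluster 6 -0.062. With a mouse left out, Fcgr3 was 0.36 to 0.49 in cluster 7, 0.37 to 0.48 in cluster 1, -0.28 to -0.18 in cytokine-like cells and -0.026 to 0.065 in cluster 6. The causes were not tested.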
